A study of Mus musculus with 21 samples.

Results

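The genes described here make cholesterol and fatty acids. They are 34 of the 17516 gene symbols in each deposited table, chosen by name from a list of sterol and fatty acid synthesis genes, and all 34 were present in every table. By role, 18 are enzymes of the mevalonate and sterol pathway, 4 are sterol regulators or a sterol carrier, 8 make, activate or elongate fatty acids and 4 put double bonds into them. The cells were CD8 T cells from OT1 mice, which carry a transgenic receptor against an ovalbumin peptide, and their RNA was counted cell by cell as unique molecular identifiers (UMIs), each of which stands for 1 captured molecule. The study compared IL-2, IL-15 and IL-2v, which its labels call a mutant IL-2, as growth cytokines for these cells.

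There were 21 libraries, 1 per condition. A library of naive cells on day 0 received no beads and no cytokine. The cells of the other 20 libraries were all activated with beads carrying anti-CD3 and anti-CD28. Without added cytokine they were sampled on days 3 and 5, and with IL-2, IL-15 or IL-2v, each at 5 or 50 IU/mL, on days 3, 5 and 10. The treatment labels of 6 libraries name other interleukins than the titles do, those titled as IL-2 or IL-15 at 50 IU/mL, and the titles and the design text were followed. The extraction protocol speaks of T cells sorted from tumours and the growth protocol of culture, and nothing says whether libraries came from separate mice or cultures. Day 7, which that protocol also names, was not analysed here. With 1 library per condition there was no spread between replicates, so no test was made and no p-value is given.

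The libraries held 3250 to 7105 cells and 10589950 to 32648496 UMIs, with medians of 3016 to 5065 UMIs per cell. Cd3d, a subunit of the T cell receptor complex, had a UMI in 93.0% to 99.5% of the cells of a library and Cd8b1 in 54.5% to 92.0%. Of the other CD8 T cell markers listed, Cd8a was seen in 37.0% to 74.2% and Trac in 56.4% to 78.6%. Cd3e was seen in 72.0% to 92.8% and Cd3g in 78.9% to 97.2%. Among the defining markers of other cells, Cd4 was seen in at most 1.49% of cells, Lyz2 and Csf1r in at most 0.126% each and Ms4a1 in at most 0.0209%. Cd79a, a B cell marker, reached 0.489% and Itgam, a myeloid one, 1.66%. Cd79b, listed with the B cell markers, was seen in 0.727% to 7.45% of cells, most with 5 IU/mL IL-15 on day 3. Cd68 and Fcer1g, listed as myeloid markers, reached 7.39% and 17.7% of cells, both in the library of 50 IU/mL IL-2 on day 10. Of 105014 barcode sequences, 1434 occurred in more than 1 library, and any 2 libraries shared at most 0.340% of the smaller one's barcodes. The share of cells with a UMI of Mki67 or Top2a, genes of dividing cells, was counted after each cell was thinned to 2000 UMIs, in the 2857 to 6921 cells of a library that had as many. It ran from 1.74% in naive cells to 77.9% with 50 IU/mL IL-2v on day 3 and differed between the libraries compared, and without thinning it was 3.01% and 86.9% in these. Its part in the results was not tested, and its values are given with the comparisons and plotted for each library. Where libraries were compared in cells without such a UMI alone, these cells were picked before thinning, so this class differs from the thinned one.

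Cholesterol is built from acetyl-CoA through mevalonate, isoprenoids, squalene and lanosterol. When sterols are scarce in the endoplasmic reticulum, the SREBP transcription factors, encoded by Srebf1 and Srebf2, are carried to the Golgi and cleaved, and the released part enters the nucleus and switches on sterol and fatty acid genes. When sterols are plentiful, Insig proteins hold SREBP back. T cells that start to divide need both lipids for new membranes, and SREBP activity is known to support their growth.

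SREBP proteins bind sterol response elements and E-boxes and act with NF-Y and Sp1, which bind CCAAT and GC boxes, so the letters of these motifs were sought in the promoters of the genes. RefSeq windows of 300 bases around the start site (GRCm38.p6) were at hand for 27 of the 34 genes. On either strand, CCAAT was present in 23 of them (85.2%) against 41.1% of 27025 genes with a window, and GGGCGG in 22 (81.5%) against 38.2%. The 27025 genes were not limited to those expressed here. A gene with several start sites counted where any of its windows matched. For Dhcr7, Me1, Tm7sf2 and Msmo1, among others, CCAAT was found only at a start site inside the annotated gene. CACGTG, an E-box, was present in 5 (18.5%) against 8.09%. TCACNCCAC, written here for the sterol response element, was found in 1 (3.70%), that of Hmgcs1, against 1.44%. Matches of CCAAT on opposite strands can overlap, as in CCAATTGG of the Fasn promoter. A match of letters is a description and not a bound site, and no match says only that these letters are not in the window.

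Parts of 5 promoters are shown because they belong to an enzyme at the head of the pathway, a later enzyme of it, the feedback gene, the main fatty acid synthase, and the sterol enzyme whose level differed least between libraries. They are bases upstream of the gene, on the strand of the gene, with matches of the 4 motifs in capitals. They end directly before the annotated gene except for Hmgcs1, whose gene starts at 119690379. They lie at chr13:119690101-119690350 (Hmgcs1), chr8:122443423-122443672 (Mvd), chr5:28071162-28071362 (Insig1), chr11:120824548-120824797 (Fasn) and chrX:8193513-8193762 (Ebp) of GRCm38.
Hmgcs1: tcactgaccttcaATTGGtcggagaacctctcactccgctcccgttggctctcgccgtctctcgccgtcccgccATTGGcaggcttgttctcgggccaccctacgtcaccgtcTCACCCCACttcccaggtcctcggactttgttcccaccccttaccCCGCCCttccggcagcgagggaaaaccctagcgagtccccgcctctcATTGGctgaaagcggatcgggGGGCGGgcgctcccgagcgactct
Mvd: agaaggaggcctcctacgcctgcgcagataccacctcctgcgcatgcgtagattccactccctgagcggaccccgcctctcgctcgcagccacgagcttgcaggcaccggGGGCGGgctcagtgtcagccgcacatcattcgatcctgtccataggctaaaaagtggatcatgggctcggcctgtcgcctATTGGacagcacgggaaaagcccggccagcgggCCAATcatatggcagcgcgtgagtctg
Insig1: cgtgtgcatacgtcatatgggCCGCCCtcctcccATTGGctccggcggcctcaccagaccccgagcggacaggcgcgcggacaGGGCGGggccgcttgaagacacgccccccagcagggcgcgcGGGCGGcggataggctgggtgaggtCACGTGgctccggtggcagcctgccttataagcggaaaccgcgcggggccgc
Fasn: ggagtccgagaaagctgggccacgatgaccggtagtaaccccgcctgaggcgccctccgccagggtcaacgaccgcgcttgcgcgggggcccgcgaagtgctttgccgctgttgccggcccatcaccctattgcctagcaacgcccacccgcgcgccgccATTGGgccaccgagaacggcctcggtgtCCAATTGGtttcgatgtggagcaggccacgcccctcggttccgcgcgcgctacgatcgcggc
Ebp: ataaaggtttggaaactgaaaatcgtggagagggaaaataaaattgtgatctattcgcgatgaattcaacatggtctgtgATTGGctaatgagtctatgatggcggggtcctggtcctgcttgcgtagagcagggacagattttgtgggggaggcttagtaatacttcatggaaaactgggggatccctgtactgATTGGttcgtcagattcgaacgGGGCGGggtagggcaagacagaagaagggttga
The stretch before Hmgcs1 holds all but the E-box, and that before Insig1 holds the E-box with CCAAT and GC boxes. Mvd and Ebp each show CCAAT and GC boxes here although their levels behaved differently, as described next. Fasn shows CCAAT boxes alone.

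Levels are in CPM, in which each library's summed UMIs are brought to the same total, and fewer cells expressing a gene cannot be told apart from less RNA per cell in such sums. Naive cells held 299.6 CPM over the 18 sterol enzymes together, and cells activated for 3 days without cytokine held 1255 CPM. On day 5 the cells without cytokine were back at 271 CPM. With cytokine, the 6 libraries of day 3 spanned 1602 to 2057 CPM, a narrow range. By day 10 they had parted, into 3 libraries at 1335 to 1513 CPM with IL-2v at both doses and 50 IU/mL IL-2 and 3 at 225 to 446 CPM with IL-15 at both doses and 5 IU/mL IL-2. The 4 desaturation genes spread further, from 15.4 CPM (5 IU/mL IL-15, day 10) to 920.4 CPM (50 IU/mL IL-2v, day 5).

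**Figure D1:**
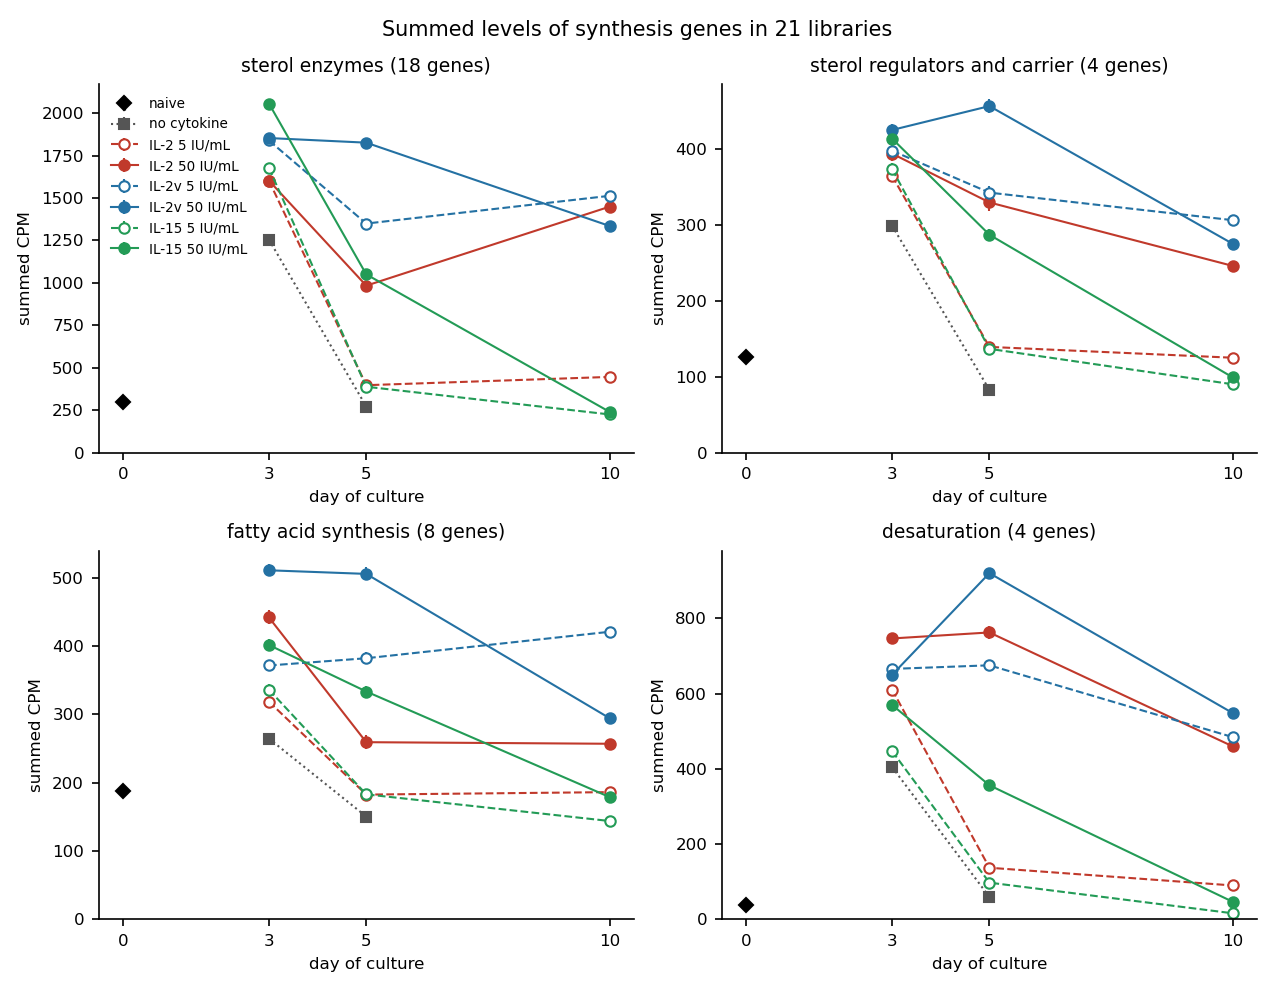
Summed level of each role group (vertical axes, CPM) against day of culture (horizontal axes), with 1 point per library, 1 line per cytokine and dose, open points for 5 IU/mL, and bars for the 95% Poisson interval of the counts. The sterol enzymes lie between 1602 and 2057 CPM in all 6 cytokine libraries of day 3 and split into a high and a low set of 3 libraries by day 10.

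A gene was compared where it averaged at least 20 CPM in either arm of a comparison, and it was called higher or lower where the difference in log2(CPM + 1) had the same sign in every pair of libraries and a median of at least 1 in size, which is a 2-fold change. This scale understates the change of low genes. Pairs match in day and dose, or in day, or in cytokine and dose, and comparisons that use the same libraries are not independent. Folds are ratios of CPM with exact 95% intervals, which cover counting error only.

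Sterol genes and desaturases were higher after activation. From naive cells to day 3 without cytokine, 29 of the 34 genes could be compared, 21 were called higher and none lower, where 11.1% and 8.31% of all genes compared were called higher and lower. The 5 genes under the minimum were Hsd17b7, Tm7sf2, Acaca, Me1 and Acsl3. The sterol enzymes had a median difference of 2.01 with 14 of 16 called, the desaturases 3.87 with 4 of 4, the regulators and carrier 1.41 with 3 of 4, and the fatty acid synthesis genes 0.69 with none of 5, beside a median of -0.11 over all genes compared. The cells with an Mki67 or Top2a UMI went over the same step from 1.74% to 50.8%.

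Among the sterol enzymes, Fdps, the synthase of farnesyl diphosphate, rose 8.78-fold (interval 8.12 to 9.50), from 38.1 to 334 CPM. Hmgcs1, which makes HMG-CoA at the head of the pathway, rose 4.95-fold (4.54 to 5.41), from 31.8 to 158 CPM. The other called enzymes ran from Dhcr7, the last enzyme of cholesterol synthesis by one of its routes, at a log2 difference of 1.06, and Acat2, a cytosolic thiolase, at 1.08, to Pmvk, the phosphomevalonate kinase, at 2.75. Mvk, Mvd and Idi1, the neighbours of Pmvk in the mevalonate pathway, stood at 2.16, 1.99 and 2.04. Fdft1 and Sqle, which make and oxidise squalene, stood at 2.35 and 2.22, and Lss, which closes it to lanosterol, at 1.59. Cyp51, the lanosterol demethylase, stood at 2.63, and Msmo1 and Nsdhl, which act after it, at 1.70 and 1.55. Ebp, a sterol isomerase, and Sc5d, a sterol desaturase, were not called, at 0.49 and 0.60.

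Insig1, the SREBP retention factor, rose 4.71-fold, from 12.9 to 61.0 CPM. Stard4, a carrier of cholesterol between membranes, rose 3.59-fold, and Srebf2, the SREBP of the sterol genes, rose 2.06-fold (1.93 to 2.20), from 67.5 to 139 CPM. With library totals that leave out ribosomal protein and mitochondrial genes, the log2 difference of Srebf2 was 0.97 and the gene was not called. Srebf1 was not called, at 0.54.

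Of the desaturases, Scd1 and Fads2 started near nothing. Scd1, a stearoyl-CoA desaturase, had 0 UMIs in naive cells and 692 on day 3, at least 191-fold higher when the naive library is set at 3 UMIs. Fads2, the delta-6 desaturase of polyunsaturated fatty acids, had 2 and 502 UMIs, a ratio of 208 with an interval of 57.4 to 1725. Scd2, the other main stearoyl-CoA desaturase here, was present before activation and rose 10.3-fold (9.46 to 11.2), from 32.1 to 330 CPM. Fads1, the delta-5 desaturase, was at 4.98 CPM in naive cells and stood at a log2 difference of 1.83. Of the fatty acid synthesis genes that could be compared none was called. Acsl3, an acyl-CoA synthetase under the minimum, went from 3.47 to 15.9 CPM, 4.59-fold (3.51 to 6.09), and to 1.32 CPM on day 5. Acly, which makes cytosolic acetyl-CoA from citrate, was at 46.8 CPM in naive cells and 78.0 CPM on day 3, and Fasn, the fatty acid synthase, at 34.4 and 44.1 CPM, neither called. Elovl5, an elongase of polyunsaturated fatty acids, was the one compared gene with a negative value, -0.21. In cells without an Mki67 or Top2a UMI before thinning, 1 fatty acid gene was called in place of 4, where 7.86% of all genes were called higher. The 4 were the desaturases, and over all cells of day 3 Fads1 and Fads2 were near the 20 CPM minimum, at 20.3 and 22.6 CPM. In thinned cells without such a UMI, the fatty acid genes together had a mean of 0.448 UMIs per naive cell and 1.04 on day 3.

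Without cytokine the same programme was low again 2 days later. From day 3 to day 5, 24 of 29 genes were called lower and none higher, where 9.47% and 3.61% of all genes compared were called. All 4 desaturases, all 4 regulators and carrier genes, 14 of 16 sterol enzymes and 2 of 5 fatty acid synthesis genes, Acly and Fasn, were among them. Role medians were -3.54, -1.85, -2.27 and -0.45, beside -0.00159 over all genes. Fdps fell to 26.1 CPM, 12.8-fold lower than on day 3, and Hmgcs1 to 22.1 CPM, 7.13-fold lower, both below the naive library. Scd2 was 6.44-fold lower at 51.3 CPM, still above the naive 32.1 CPM. Fads2 was back to 2 UMIs and Scd1 to 13. Ebp, at 0.15 and not called, was the only compared gene above 0. The cells with an Mki67 or Top2a UMI went from 50.8% to 7.83%, and without thinning from 60.0% to 13.8%. In cells without such a UMI before thinning, 1 fatty acid gene was called lower in place of 6, where 4.99% of all genes were. With TMM scaling the median over all genes was 0.12, and higher calls made up 38.0% of all calls in place of 27.6%.

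**Figure D2:**
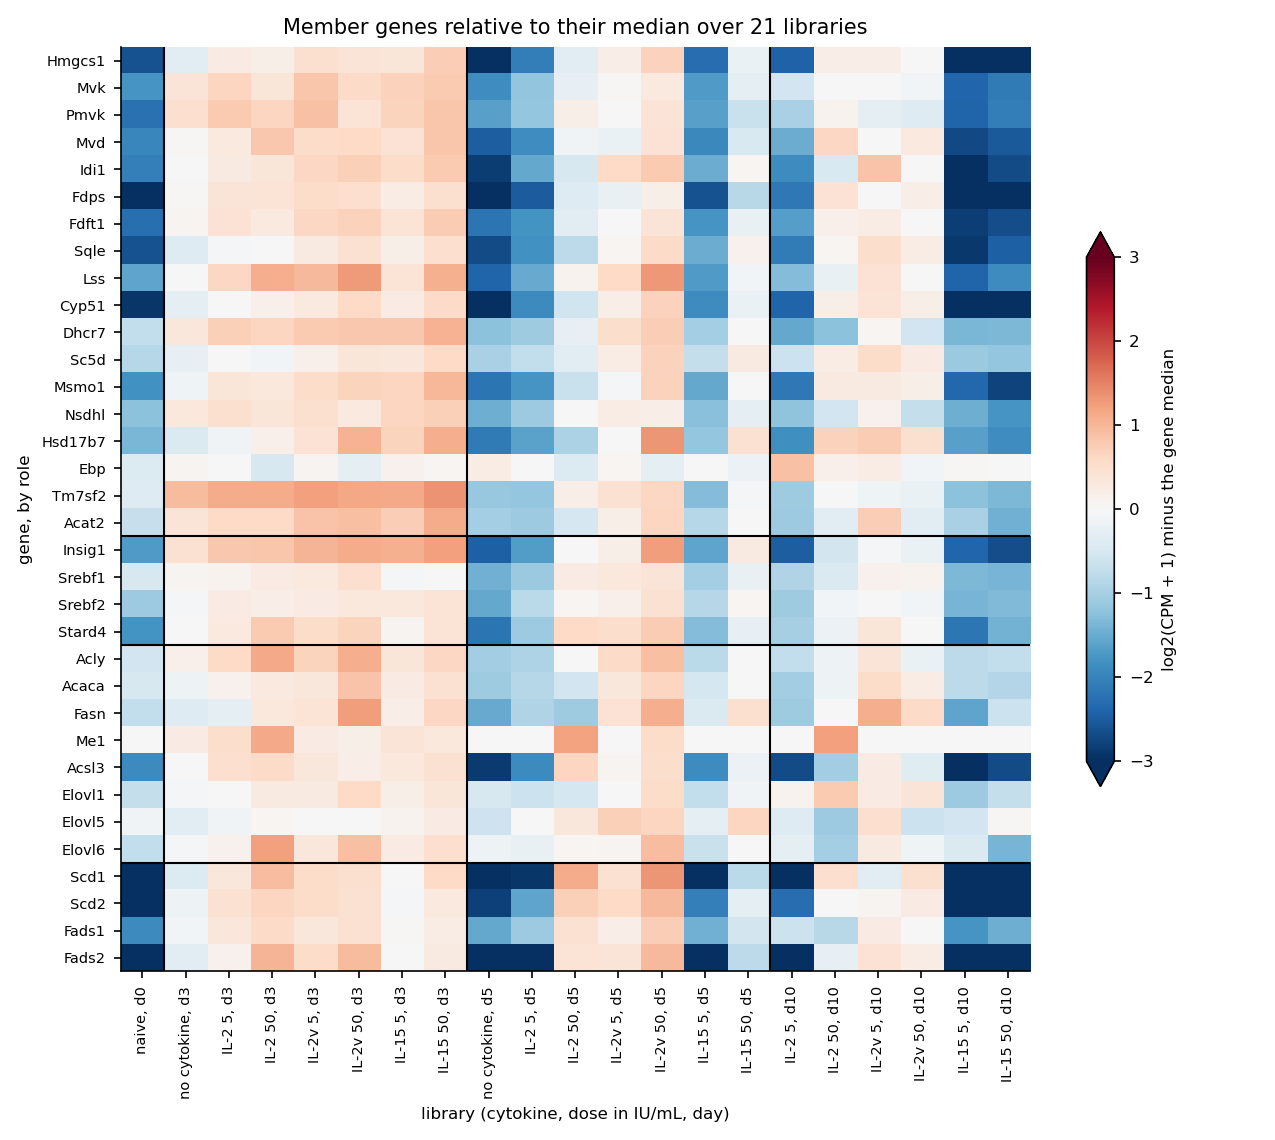
The 34 genes (vertical axis, grouped by role) in the 21 libraries (horizontal axis), coloured by log2(CPM + 1) minus the median of the gene over the libraries. Naive cells, day 5 without cytokine and both IL-15 libraries of day 10 are low over nearly all sterol enzymes and desaturases. The libraries of 5 IU/mL IL-2 on days 5 and 10 and 5 IU/mL IL-15 on day 5 are low too, with summed sterol enzymes at 397, 446 and 388 CPM. Ebp does not share the pattern of the other sterol enzymes.

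The next paragraphs follow the leading genes through the cytokine libraries. Fdps on day 3 lay at 428 and 435 CPM with 5 and 50 IU/mL IL-2, at 475 and 461 CPM under IL-2v, and at 376 and 456 CPM with IL-15. On day 5 Fdps lay at 57.1 and 248 CPM with IL-2, 280 and 369 CPM under IL-2v, and 51.9 and 182 CPM with IL-15. On day 10 Fdps lay at 73.0 and 437 CPM with IL-2, 325 and 375 CPM under IL-2v, and 16.3 and 26.1 CPM with IL-15. Thus every library of day 3 was high, and on day 10 the IL-15 libraries were below the naive level of 38.1 CPM. Part of the exons of Fdps, 26.7% of its bases, is shared with the model Gm43738 on the same strand, which the tables do not list.

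Hmgcs1 on day 3 lay at 236 and 224 CPM with 5 and 50 IU/mL IL-2, at 275 and 260 CPM under IL-2v, and at 256 and 332 CPM with IL-15. By day 5 Hmgcs1 was at 46.0 and 159 CPM with IL-2, 227 and 321 CPM under IL-2v, and 40.1 and 174 CPM with IL-15. By day 10 Hmgcs1 was at 36.2 and 227 CPM with IL-2, 226 and 198 CPM under IL-2v, and 21.5 and 19.9 CPM with IL-15. The highest of all 21 libraries for this gene, IL-15 at 50 IU/mL on day 3, and the lowest, the same dose on day 10, came from the same cytokine and differed 16.6-fold.

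Cyp51 on day 3 lay at 118 and 131 CPM with 5 and 50 IU/mL IL-2, 145 and 180 CPM under IL-2v, and 140 and 176 CPM with IL-15, after 14.7 CPM in naive cells and 96.2 CPM without cytokine. On day 5 Cyp51 was at 12.5 CPM without cytokine, 30.5 and 77.9 CPM with IL-2, 135 and 192 CPM under IL-2v, and 31.4 and 102 CPM with IL-15. On day 10 Cyp51 was at 21.6 and 133 CPM with IL-2, 156 and 133 CPM under IL-2v, and 9.14 and 13.7 CPM with IL-15. Its IL-2v libraries stayed between 133 and 192 CPM. Lss was lower throughout, with 6.88 CPM in naive cells and, without cytokine, 22.7 CPM on day 3 and 3.51 CPM on day 5. Lss with IL-2 was at 35.4 and 49.8 CPM on day 3, 7.38 and 24.4 CPM on day 5, and 8.67 and 19.3 CPM on day 10. Lss with IL-2v was at 45.2 and 56.6, 34.8 and 57.1, and 31.2 and 22.7 CPM on these days, and under IL-15 at 30.6 and 48.3, 6.29 and 21.4, and 3.52 and 5.43 CPM. In each pair of equal day and dose, IL-2v was above both other cytokines.

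Srebf2 varied 4.05-fold over the 21 libraries, less than 16 of the 18 sterol enzymes, the others being Ebp and Sc5d (3.76-fold). With IL-2 at 5 and 50 IU/mL, Srebf2 was at 172 and 167 CPM on day 3, 81.8 and 151 CPM on day 5, and 68.2 and 136 CPM on day 10. With IL-2v it was at 173 and 181, 160 and 199, and 145 and 136 CPM, and under IL-15 at 181 and 193, 80.1 and 151, and 54.7 and 57.4 CPM. The lowest value, 49.3 CPM, was that of day 5 without cytokine. Stard4 was at 15.4 CPM in naive cells and at 55.3 and 11.4 CPM on days 3 and 5 without cytokine. Stard4 with IL-2 at 5 and 50 IU/mL was at 69.3 and 97.5 CPM on day 3, 25.6 and 85.2 CPM on day 5, and 27.8 and 49.8 CPM on day 10. With IL-2v Stard4 was at 82.8 and 89.3, 80.6 and 96.4, and 72.3 and 56.1 CPM, and under IL-15 at 59.2 and 74.4, 22.2 and 47.3, and 11.8 and 20.3 CPM. The IL-15 library was the lowest of the 3 cytokines in every pair of day and dose. Srebf1 spanned 14.5 to 58.9 CPM and Insig1 6.15 to 106 CPM.

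Acly was at 33.1 CPM on day 5 without cytokine. With IL-2 at 5 and 50 IU/mL it was at 106 and 153 CPM on day 3, 36.4 and 69.0 CPM on day 5, and 41.1 and 62.4 CPM on day 10. With IL-2v Acly was at 112 and 151, 104 and 131, and 91.6 and 60.1 CPM, and under IL-15 at 89.3 and 108, 39.4 and 69.6, and 40.0 and 41.2 CPM. Its range over the 21 libraries was 4.63-fold. Fasn was at 19.6 CPM on day 5 without cytokine. With IL-2 at 5 and 50 IU/mL, Fasn was at 47.6 and 71.5 CPM on day 3, 30.5 and 27.0 CPM on day 5, and 27.1 and 57.6 CPM on day 10. With IL-2v Fasn was at 76.4 and 139, 78.2 and 124, and 123 and 86.5 CPM, and under IL-15 at 66.6 and 89.2, 42.6 and 81.2, and 18.5 and 36.6 CPM. The lowest IL-2v library, at 76.4 CPM, was above every IL-2 library, so these groups did not overlap. Those of Cyp51 and Sqle, which were not called, did not overlap either, but only barely. The nearest Sqle libraries held 67.9 CPM with IL-2v and 67.2 CPM with IL-2. The nearest Cyp51 libraries differed by 0.0006 in log2(CPM + 1). Of all genes compared 0.274% had IL-2v libraries wholly above those of IL-2, and Fasn is described here because it was called in this comparison.

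Scd2 had the highest mean of the 34 genes, 334 CPM. With IL-2 at 5 and 50 IU/mL, Scd2 was at 498 and 574 CPM on day 3, 121 and 602 CPM on day 5, and 73.7 and 364 CPM on day 10. With IL-2v Scd2 was at 533 and 504, 554 and 718, and 386 and 434 CPM, and under IL-15 at 354 and 445, 87.4 and 302, and 9.82 and 38.2 CPM. The lowest IL-2v library held 386 CPM, and the IL-15 libraries were lower at each later day at both doses. Scd1, its neighbour on chromosome 19, was at 52.8 and 80.2 CPM with 5 and 50 IU/mL IL-2 on day 3, 4.64 and 91.1 CPM on day 5, and 0.773 and 59.2 CPM on day 10. With IL-2v Scd1 was at 62.1 and 59.0, 57.6 and 107, and 32.9 and 58.8 CPM, and under IL-15 at 41.8 and 63.4, 1.34 and 23.5, and 0 and 0.220 CPM. The low libraries of Scd1 are thus those of Scd2, at much lower counts.

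Fads2 was at 31.8 and 59.6 CPM with 5 and 50 IU/mL IL-2 on day 3, 1.65 and 39.2 CPM on day 5, and 1.61 and 24.3 CPM on day 10. With IL-2v Fads2 was at 43.0 and 56.8, 38.0 and 58.5, and 39.6 and 34.2 CPM, and under IL-15 at 29.1 and 35.5, 0.937 and 16.4, and 0 and 0.502 CPM. It was the gene that came closest to an on and off pattern besides Scd1. Fads1, which lies beside Fads2 on chromosome 19, kept some RNA everywhere, with 4.98 CPM in naive cells and 20.3 and 6.74 CPM on days 3 and 5 without cytokine. Fads1 with IL-2 at 5 and 50 IU/mL was at 27.7 and 32.6 CPM on day 3, 9.53 and 30.1 CPM on day 5, and 13.4 and 11.6 CPM on day 10. With IL-2v Fads1 was at 27.5 and 29.9, 25.1 and 36.8, and 25.9 and 21.6 CPM, and under IL-15 at 22.1 and 25.4, 7.33 and 14.3, and 5.62 and 7.12 CPM. Its IL-15 libraries were below the paired IL-2 library in all 6 pairs.

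In the annotation of the files' build (GENCODE vM21, GRCm38) all 34 are protein-coding genes. Fdps lies at chr3:89093588-89101959 on the minus strand, Hmgcs1 at chr13:119690379-119708260 and Srebf2 at chr15:82147181-82205379, both on the plus strand. Acly and Fasn lie at chr11:100476353-100528000 and chr11:120805846-120824547, both on the minus strand. Scd1 lies at chr19:44394455-44407879 on the minus strand and Scd2 at chr19:44293674-44306864 on the plus strand, and Fads2 and Fads1 at chr19:10062765-10101746 and chr19:10182888-10196877. Counts are uncertain where a copy shares the sequence. Of the 50-base stretches of Acaca 52.6% also occur in Gm5182, of Acat2 45.9% in Acat3, of Me1 26.5% in other genes, of Idi1 21.3% in Gm13502 and of Fdft1 10.9% in Gm6781, while for Scd1 and Scd2 the share was 4.66% and 4.01%. Exons of Fdft1 (18.3%) and Hmgcs1 (12.1%) also overlap genes on the opposite strand, and whether the counting used strand is not given in the sources used here.

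Between IL-2v and IL-2, Fasn was the one gene called over all 6 pairs, and the other genes differed from pair to pair. Over the 6 pairs of day and dose, 31 of the 34 genes could be compared, not Tm7sf2, Me1 and Acsl3, and all 31 medians were above 0, at 0.52 in the median beside 0.06 over all genes. Fasn alone was called higher, at 1.14, and none was called lower, where 1.04% and 0.274% of all genes were called. Fasn was higher with IL-2v in 6 of 6 pairs, by 1.60-fold and 1.94-fold on day 3, 2.57-fold and 4.60-fold on day 5, and 4.54-fold and 1.50-fold on day 10, the lower dose first. Of all calls in this comparison 79.2% were higher ones, and 59.0% with TMM scaling.

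The counts by dose and day follow, and the difference between doses was not tested. In the 3 pairs at 5 IU/mL alone, chosen as a split after the data were seen, 22 genes were called higher, 16 sterol and 6 fatty acid genes, where 3.00% of all genes were called. In the 3 pairs at 50 IU/mL none was, where 1.06% were. No gene was called lower at either dose, where 0.729% and 0.979% were. Without day 3, 10 were called higher, without day 5 none, and without day 10 there were 2, where 3.28%, 0.482% and 0.437% of all genes were. With fewer pairs, fewer signs have to match. On day 3 the sterol enzymes differed by medians of 0.19 and 0.22 at the 2 doses and none of 17 reached a 2-fold difference. On day 5 they differed by 1.66 at 5 IU/mL, with 15 of 17 at least 2-fold higher where 7.72% of all genes were, and by 1.01 at 50 IU/mL with 9 of 17, where 5.65% were. On day 10 they differed by 1.82 at 5 IU/mL with 14 of 17, where 6.95% of all genes were, and by -0.09 at 50 IU/mL with none, where 4.30% were.

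Of the desaturases at 5 IU/mL, Scd1, Fads2 and Scd2 differed widely and Fads1 less. Scd1 was 12.4-fold higher with IL-2v on day 5 (interval 10.0 to 15.5) and 42.6-fold higher on day 10 (28.3 to 67.5). Fads2 was 23.1-fold and 24.6-fold higher on these days, and Scd2 4.59-fold and 5.24-fold. Fads1 had a median of 0.90 at this dose, was at -0.01 on day 3 and was not called. At 50 IU/mL on day 10 Scd1 had 1605 UMIs with IL-2v and 1615 with IL-2, a ratio of 0.993 (0.926 to 1.06). Among the enzymes at 5 IU/mL, Hmgcs1 was 4.93-fold and 6.24-fold higher on days 5 and 10 and Fdps 4.90-fold and 4.45-fold. The cells with an Mki67 or Top2a UMI were 34.2% with IL-2v against 12.5% with IL-2 at 5 IU/mL on day 5, 31.6% against 11.8% on day 10, and 57.1% against 54.9% on day 3.

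**Figure D3:**
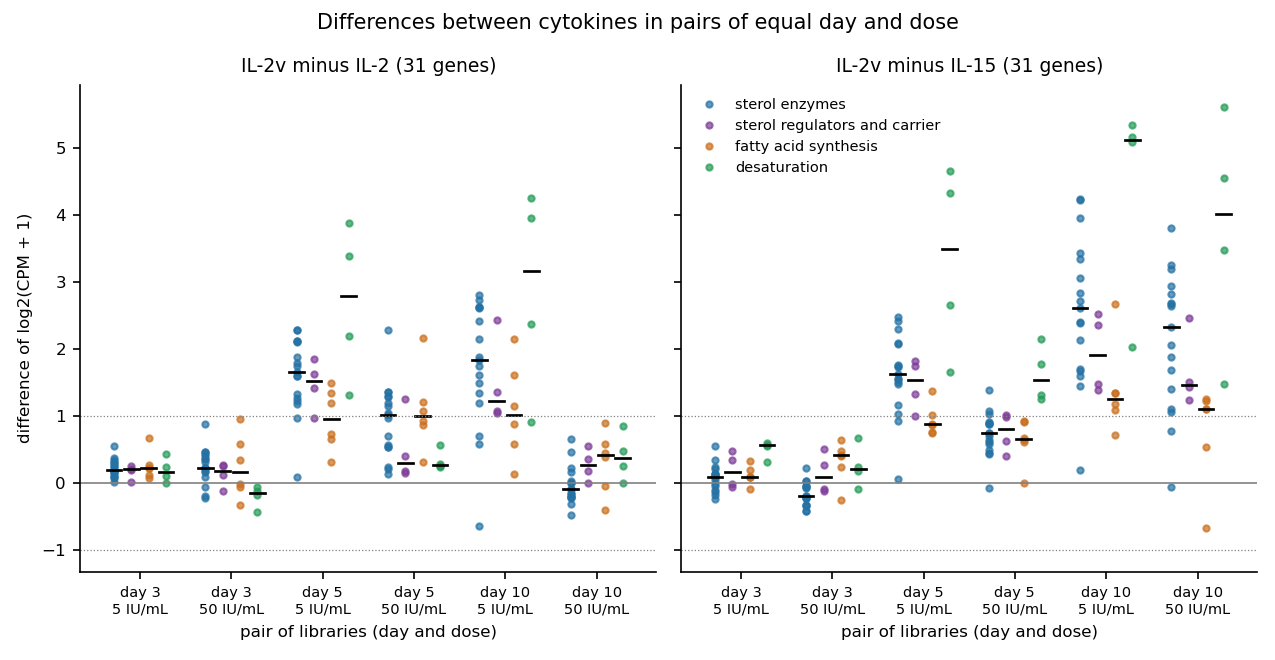
Difference in log2(CPM + 1) of each compared gene (points, coloured by role) in the 6 pairs of equal day and dose (horizontal axis) for IL-2v minus IL-2 and IL-2v minus IL-15, with bars at the median of each role and dotted lines at 1 and -1. On day 3 the bars of all 4 roles lie between -0.21 and 0.55, with Fasn the highest point at 0.95 in the pair of 50 IU/mL against IL-2. On day 10 at 50 IU/mL the bars lie between -0.09 and 0.41 against IL-2 and between 1.10 and 4.01 against IL-15, where single genes such as Ebp are below 0.

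Against IL-15, most sterol enzymes were higher with IL-2v at both doses by day 10. Of 31 genes compared 7 were called higher and none lower, where 2.48% and 0.585% of all genes were. They were Fads2 (3.05), Scd2 (1.95), Fdps (1.71), Lss (1.63), Cyp51 (1.48), Fads1 (1.39) and Stard4 (1.22), each higher in 6 of 6 pairs. The calls of Fdps and Cyp51 did not hold with TMM scaling, at 1.49 and 1.26 with a changed sign in a pair of day 3, where their main differences were 0.02 and 0.03. With totals that leave out ribosomal protein and mitochondrial genes, the 4 sterol genes called also became 2. Scd1 had a median of 3.39 and was higher in 5 of 6 pairs, the exception being 50 IU/mL on day 3. Without day 3 the count of called genes was 26 and without day 10 it was 1, where 6.33% and 1.71% of all genes were called higher, and at 5 IU/mL alone it was 18, where 4.06% of all genes were called higher and 0.437% lower. At 50 IU/mL alone it was 6, where 4.06% and 1.38% were. Higher calls made up 80.9% of all calls, 62.1% with TMM scaling and 63.3% with totals that leave out ribosomal protein and mitochondrial genes. These 2 comparisons and the next share libraries.

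The role medians against IL-15 were 2.50 for the desaturases, 1.16 for the sterol enzymes, 1.09 for the regulators and carrier and 0.73 for the fatty acid synthesis genes, beside 0.10 over all genes. On day 10 the sterol enzymes differed by 2.62 at 5 IU/mL, with 16 of 17 at least 2-fold higher where 11.7% of all genes were, and by 2.33 at 50 IU/mL with 15 of 17, where 7.56% were. On day 3 their medians were 0.09 and -0.21. Fdps on day 10 was 19.9-fold higher at 5 IU/mL and 14.4-fold at 50 IU/mL, and Cyp51 17.1-fold and 9.71-fold. Scd2 was 39.3-fold (34.5 to 44.9) and 11.4-fold higher. Scd1 was at least 256-fold higher at 5 IU/mL, where IL-15 had 0 UMIs and is set at 3, and 268-fold higher at 50 IU/mL (130 to 667), where IL-15 had 7. Fads2 was at least 308-fold higher at 5 IU/mL and 68.2-fold at 50 IU/mL (41.7 to 120). Ebp, with a median of -0.06, and Elovl5, with -0.05, were the compared genes below 0. The cells with an Mki67 or Top2a UMI on day 10 were 31.6% and 17.6% under IL-2v, against 2.41% and 7.58% under IL-15.

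Fewer genes were called between IL-15 and IL-2 than between IL-2v and IL-15, and the sterol enzymes differed most on day 10. Of 29 genes compared 1 was called lower with IL-15, Scd1 at -1.05, and none higher, where 1.70% and 0.490% of all genes were. Leaving out day 3 gave 6 genes called lower, leaving out day 5 gave 2 and leaving out day 10 gave none, where 3.86%, 1.98% and 1.48% of all genes were. At 50 IU/mL alone 2 genes were called lower, where 4.49% of all genes were called lower and 2.21% higher, and at 5 IU/mL alone none, where 0.855% and 0.125% were. Higher calls made up 22.4% of all calls, and 33.8% with totals that leave out ribosomal protein and mitochondrial genes. Another 5 genes that were not called lay below 0 in 6 of 6 pairs, which with Scd1 makes 6 of 29 where 9.58% of all genes compared did so. They were Fads2 (-0.97), Scd2 (-0.74), Stard4 (-0.61), Fads1 (-0.49) and Lss (-0.20). At 50 IU/mL on day 10, 14 of 16 sterol enzymes were at least 2-fold lower with IL-15, with a median of -2.20, where 9.23% of all genes were, and the desaturases had a median of -3.65. At 5 IU/mL on day 10 these medians were -0.96 and -1.26. On day 5 at 50 IU/mL the sterol enzymes had a median of 0.17 while the desaturases had -1.12, with Scd1 at 23.5 CPM against 91.1 CPM and Hmgcs1 at 174 CPM against 159 CPM. The cells with an Mki67 or Top2a UMI were 19.9% with IL-15 and 47.6% with IL-2 in that pair.

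The next comparisons set the 2 doses of a cytokine side by side on each day. From 5 to 50 IU/mL IL-2, 10 of 29 genes were called higher, where 4.29% of all genes were, and none lower, where 2.70% of them were. They were Scd1 (4.03), Fads2 (3.28), Scd2 (2.29), Fdps (2.10), Mvd (1.76), Insig1 (1.68), Cyp51 (1.33), Lss (1.07), Idi1 (1.05) and Sqle (1.03), of which Fdps, Insig1, Idi1 and Sqle were not called with TMM scaling and Stard4 (1.12) was. On day 3 these 4 differed by only 0.02, 0.02, 0.09 and 0.04, while on days 5 and 10 Fdps stood at 2.10 and 2.57. The 7 sterol genes among the 10 became 4 with TMM scaling or a pseudocount of 10, 3 with totals that leave out ribosomal protein and mitochondrial genes, 11 in cells without an Mki67 or Top2a UMI and 12 without day 3, where 4.53%, 2.67%, 3.77%, 4.85% and 6.53% of all genes were called higher. The sterol enzymes had medians of -0.05, 1.11 and 1.25 on days 3, 5 and 10 and the desaturases 0.41, 3.12 and 2.78. Scd1 was 19.6-fold higher at the upper dose on day 5 and 76.6-fold on day 10 (50.9 to 121), and Fdps 4.35-fold and 5.99-fold. Ebp was lower at 50 IU/mL on all 3 days, with a median of -0.49 that was not called. Higher calls made up 61.3% of all calls, and 50.6% with totals that leave out ribosomal protein and mitochondrial genes. On day 10 the cells with an Mki67 or Top2a UMI were 11.8% at 5 IU/mL and 8.12% at 50 IU/mL, the reverse order of the sterol genes, while on day 5 they were 12.5% and 47.6%.

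For IL-2v no gene of 31 was called between doses, where 2.38% of all genes were called higher and 0.626% lower, and the sterol enzymes had medians of 0.06, 0.47 and -0.30 by day. At the lower and upper dose of IL-2v, cells with an Mki67 or Top2a UMI made up 57.1% and 77.9% on day 3, 34.2% and 60.5% on day 5, and 31.6% and 17.6% on day 10. Higher calls made up 79.2% of all calls, and 63.9% with TMM scaling. For IL-15 1 of 27 genes was called higher, Scd2 at 1.78, where 0.869% of all genes were, and none lower, where 0.181% were. The sterol enzymes had medians of 0.30, 1.51 and 0.18, so their gap between IL-15 doses was widest on day 5, while Scd2 stood at 1.78 on day 5 and 1.86 on day 10. In all, 5 genes were called without day 3 and 9 without day 10, where 2.80% and 0.467% of all genes were. Without day 10, IL-2 had 8 called, where 5.86% were. At 5 and 50 IU/mL IL-15 the cells with an Mki67 or Top2a UMI were 46.8% and 49.2% on day 3, 15.2% and 19.9% on day 5, and 2.41% and 7.58% on day 10. Whether the dose response differs between cytokines was not tested.

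Measured against the 2 libraries without cytokine, on days 3 and 5, the count of called genes rose from 0 of 26 with 5 IU/mL IL-15 and 1 of 27 with 5 IU/mL IL-2 (Scd1, 1.32) to 16 of 30 with 50 IU/mL IL-2, 18 of 30 with 50 IU/mL IL-15, 20 of 30 with 5 IU/mL IL-2v and 27 of 32 with 50 IU/mL IL-2v. All genes were called higher at 0.110%, 0.421%, 9.75%, 2.05%, 4.57% and 13.4%, in the same order, and no member was called lower, where 0.0367%, 0.0733%, 3.25%, 0.298%, 0.467% and 2.73% of all genes were. Without cytokine 7.83% of the cells of day 5 had an Mki67 or Top2a UMI. At the lower and upper dose these were 12.5% and 47.6% for IL-2, 15.2% and 19.9% for IL-15, and 34.2% and 60.5% for IL-2v. On day 3 they were 50.8% without cytokine and 46.8% to 77.9% with one. In cells without such a UMI before thinning, the counts of the last 4 were 15, 15, 14 and 24. There 9.60%, 2.08%, 2.81% and 13.3% of all genes were called higher, and with 5 IU/mL IL-2v 3 fatty acid genes were called in place of 6. These 6 comparisons share their controls, and each value is the median of a pair from day 3 and one from day 5 that were unlike. On day 5 sterol enzymes summed to 397 CPM with 5 IU/mL IL-2 and 388 CPM with 5 IU/mL IL-15, against 271 CPM without cytokine. The desaturases summed to 137 and 97.0 CPM, against 58.7 CPM. With 5 IU/mL IL-2v none of the 16 sterol enzymes compared was 2-fold higher on day 3, at a median of 0.51, and 15 were on day 5, at 2.18, where 0.225% and 10.2% of all genes were. With 50 IU/mL IL-2v it was 2 and then 16 of 17 (7.71% and 21.4% of all genes), with 50 IU/mL IL-15 4 and 15 of 17 (0.878% and 6.48%), and with 50 IU/mL IL-2 1 and 12 of 16 (6.04% and 16.5%). Fads2, among the highest in each of the last 4, stood at 3.29, 2.32, 3.04 and 3.54. Hsd17b7, an enzyme of sterol demethylation, stood at 2.05 and 2.46 with 50 IU/mL IL-15 and IL-2v and was under the 20 CPM minimum in the other 4. Higher calls made up 75.0%, 90.7%, 83.1% and 87.3% of all calls with 50 IU/mL IL-2, 5 and 50 IU/mL IL-2v and 50 IU/mL IL-15, and 59.1%, 80.6%, 57.1% and 75.0% with TMM scaling. With totals that leave out ribosomal protein and mitochondrial genes, the shares with 50 IU/mL IL-2 and 50 IU/mL IL-2v were 63.8% and 71.1%.

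From day 3 to day 10, 17 of 32 genes were called lower in the 6 pairs of cytokine and dose and none higher, where 7.98% and 0.870% of all genes were. Scd1 (-2.91), Fads2 (-2.45), Acsl3 (-2.37), Insig1 (-2.33) and Dhcr7 (-2.03) had the lowest medians. The sterol enzymes had medians of -3.07 and -2.95 with 5 and 50 IU/mL IL-15, -1.91 and -0.13 with IL-2, and -0.28 and -0.56 under IL-2v. The desaturases had -4.97 and -4.06, -3.19 and -0.96, and -0.29 and -0.34. Between 46.8% and 77.9% of the cells of a library had an Mki67 or Top2a UMI on day 3 and between 2.41% and 31.6% on day 10. Without the IL-15 pairs 6 genes were called lower, with TMM scaling 5 and in cells without an Mki67 or Top2a UMI 8, where 8.59%, 4.73% and 4.49% of all genes were. The 6 fatty acid genes among the 17 became 0 with TMM scaling and 3 with totals that leave out ribosomal protein and mitochondrial genes, where 6.92% of all genes were called lower. TMM scaling moved the median over all genes from -0.17 to 0.09, and the share of higher calls from 9.83% to 25.8%. Ebp (0.18) was the compared gene with a median above 0.

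Most of the genes moved together. Over the 18 cytokine libraries, Pearson r of log2(CPM + 1) between a sterol enzyme and the mean of the others was at least 0.9 for 16 of 18, up to 0.99 for Fdft1. The exceptions were Dhcr7 (0.87) and Ebp (-0.31), and the median r over pairs of enzymes was 0.92. Srebf2 (0.98), Insig1 (0.97), Fads2 (0.96), Scd1, Stard4 and Acsl3 (0.94 each), Srebf1 (0.93) and Scd2 (0.92) followed the enzymes closely. Acly and Acaca, the carboxylase that makes malonyl-CoA, stood at 0.90, Fasn at 0.81, Elovl1 at 0.82, Elovl6 at 0.73 and Elovl5 at 0.35. These are descriptions, since the libraries share cytokines, days and differences in depth and in cycling.

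Ebp stood apart in level too. It ranged from 42.5 CPM with 50 IU/mL IL-2 on day 3 to 111 CPM with 5 IU/mL IL-2 on day 10, a 2.62-fold span that was the narrowest of the 18 enzymes, and no comparison called it. Me1, malic enzyme, had 0 UMIs in 11 libraries and at most 1.36 CPM, so no fold is given. Hsd17b7 and Tm7sf2 were low, at most 40.7 and 14.9 CPM, and followed the other enzymes.

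Among 5509 genes ranked by the same correlation with the mean of the 18 enzymes, genes outside the list with high r included Tmem97, a membrane protein tied to cholesterol (0.96), Rdh11 (0.96), Dynll2 (0.94), Nelfe (0.94), Slc25a1, the mitochondrial citrate carrier (0.94), Gcat (0.93), Calm3 (0.93) and Kars (0.93). Of these, Tmem97 and Slc25a1 were also in a list of other synthesis genes, and they were called higher on activation at 2.28 and 1.90, while Acss2 of the same list, which makes acetyl-CoA from acetate, was called lower at -1.09. Between days 3 and 5 without cytokine Tmem97 and Slc25a1 were called lower, at -2.05 and -1.73. Abcg1, a sterol exporter, and Mylip, a ubiquitin ligase, both known as genes that oxysterols raise through LXR, were called lower on activation at -1.51 and -2.45 and higher from day 3 to day 5 at 1.35 and 1.41, the 2 called of 5 compared in a list of 8 genes of sterol efflux, storage and LXR, where 8.31% and 3.61% of all genes were called so. Others of that list were not called in these steps, and over the 18 cytokine libraries Lpcat3, a phospholipid acyltransferase, and Soat2, a cholesterol acyltransferase, had r of 0.88 and 0.63 with the enzymes, against -0.48 for Abcg1 and -0.67 for Mylip. None of 6 SREBP processing genes, such as Scap, the SREBP escort, was called in any of the comparisons between libraries, in each of which 1 to 3 of them could be compared.

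The mean of the sterol enzymes and the share of cells with an Mki67 or Top2a UMI had a Pearson r of 0.79 and a Spearman rho of 0.85 over the 18 cytokine libraries. Within a day, over 6 libraries each, r was -0.08 on day 3, 0.80 on day 5 and 0.73 on day 10. On day 3 the share ran from 46.8% to 77.9% while the summed sterol enzymes ran from 1602 to 2057 CPM. Against the median UMIs per cell r was 0.23.

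**Figure D4:**
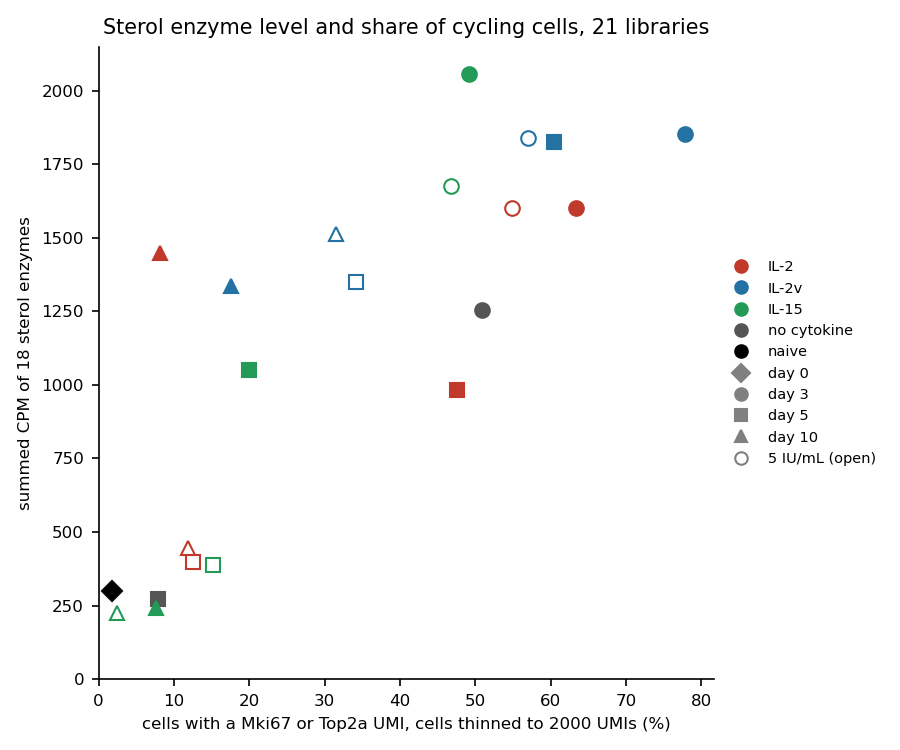
Summed level of the 18 sterol enzymes (vertical axis, CPM) against the share of cells with a UMI of Mki67 or Top2a (horizontal axis, percent), with 1 point per library, coloured by cytokine and shaped by day. The library of 50 IU/mL IL-2 on day 10 has 8.12% such cells and 1449 CPM, far above 50 IU/mL IL-15 on the same day with 7.58% and 240.2 CPM.

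Cells with and without an Mki67 or Top2a UMI were also compared within a library. Each cell was first thinned to 2000 UMIs, and the 2 classes were compared in each of the 18 cytokine libraries, with 130 to 3534 cells in the cycling class. All 31 genes that could be compared had a median above 0, at 0.59 in the median beside 0.07 over all genes, and none was called, where 2.16% of all genes were called higher and 0.0172% lower. A call needed the same sign in all 18 libraries. Fads2 alone had a median of at least 1. Its difference was 0 with 5 IU/mL IL-15 on day 10, where it had no UMI. Insig1 (0.97) and Acly (0.49) were higher in 18 of 18 libraries, Fads2 (1.20) and Fdps (0.40) in 17 and Ebp (0.11) in 12. Single libraries went the other way, the lowest at -3.15 for Cyp51. The smallest cycling class, 130 cells, was that of 5 IU/mL IL-15 on day 10. Cyp51 was at 9.14 CPM in the whole of that library, so few of its UMIs could be counted in that class.

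Per cell, the 18 sterol enzymes together gave a mean of 0.584 UMIs in naive cells thinned to 2000 UMIs, 2.41 on day 3 and 0.524 on day 5 without cytokine, and up to 3.91 with 50 IU/mL IL-15 on day 3. On day 10 the mean with 50 IU/mL IL-15 was 0.454. Cells with none of these UMIs made up 60.8% of the naive library (59.4% to 62.2%, exact 95% binomial interval), 15.2% on day 3 without cytokine, 4.82% with 50 IU/mL IL-2v on day 3 and 65.5% on day 10 at 50 IU/mL IL-15. With 50 IU/mL IL-2 on day 10, cycling cells had a mean of 3.20 and other cells 2.83. With 5 IU/mL IL-2 on that day the means were 1.20 and 0.720. Without thinning, 13.4% and 18.2% of the cells of these libraries had an Mki67 or Top2a UMI. Thinned, 8.12% and 11.8% did, so the other cells may still hold dividing ones. Before thinning, cells of under 2000 UMIs were left out, 12.1% with 50 IU/mL IL-2 on day 5 and 0.938% to 6.41% in the other libraries. The library of 50 IU/mL IL-2 on day 5 also had the fewest cells and UMIs and the lowest median UMIs per cell. Free RNA in droplets adds UMIs to such counts, and no cell type that lacks these genes was at hand to measure it.

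Cells within a library were not alike. With 5 IU/mL IL-2v on day 5 the variance of the sterol enzyme UMIs per cell was 2.69 times their mean, the highest of the 21 libraries, where counting alone gives about 1. There the means were 3.71 in cycling and 1.90 in other cells, and Pearson r across cells between sterol enzyme and fatty acid gene UMIs was 0.47. On day 10 with 5 IU/mL IL-15 the ratio was 1.03 and r was -0.00, at a mean of 0.455 UMIs where few cells could show a difference. None of its 5394 cells had 5 or more sterol enzyme UMIs (exact 95% upper limit 0.0684%), against 35.8% of cells with 50 IU/mL IL-15 on day 3.

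**Figure D5:**
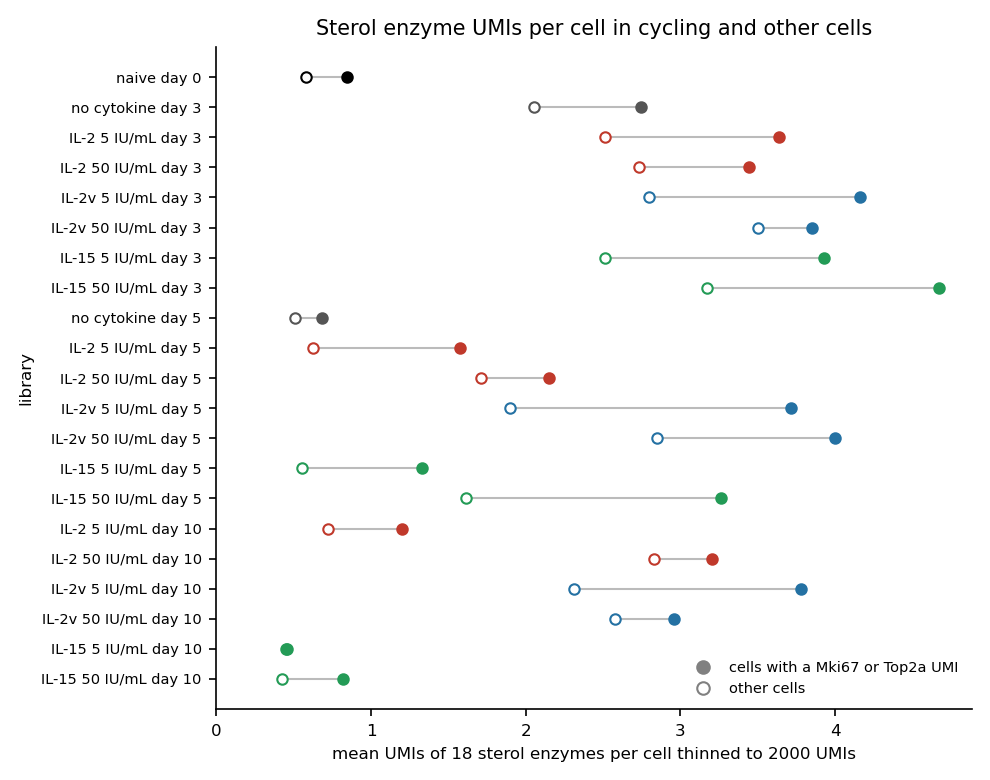
Mean sterol enzyme UMIs per cell after thinning to 2000 UMIs (horizontal axis) in each library (vertical axis), with filled points for cells with a UMI of Mki67 or Top2a and open points for the others. On day 10, cells without such a UMI at 50 IU/mL IL-2 (2.83) lie above cells with one at 5 IU/mL IL-2 (1.20). Both classes are low with 5 IU/mL IL-15 on day 10 (0.454 and 0.455).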

How the data were processed

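The authors deposited 1 table of raw counts per library, whole-number UMI counts per gene symbol and cell barcode, over the same 17516 symbols. Per the submitters' processing notes, Cell Ranger, Seurat 3.0.2 and 4.0.1 and mm10 were used. The annotation and any doublet removal are not given in the sources used here, and no doublet caller was run. The tables hold 106458 barcodes of 1002 to 13407 UMIs. Limits of 1000 UMIs and 500 genes or more and 10% mitochondrial UMIs or less per cell removed 2 barcodes. UMIs were summed per library and scaled to CPM over all genes, with a pseudocount of 1 CPM. Ribosomal protein genes, by symbol, took 27.8% to 42.8% of the UMIs.

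The 3 cytokine comparisons used 6 pairs each and share libraries. The genes, lists, limits and comparisons were chosen with earlier results of these data known. Values in every library are given for the 2 genes of each role with the highest mean and for genes called between IL-2v and another cytokine. No test was made, and the counts entered no count model. Intervals are exact Poisson or binomial at 95%, and UMIs of a library at 0 are set at 3 for a fold. The calling code was tested on simulated data in which 200 genes were changed. Alternatives were TMM scaling (edgeR 4.0.16, R 4.3.3), totals that leave out mitochondrial and ribosomal protein genes, averages of per-cell CPM, 10 as pseudocount and no minimum level. Further ones were other limits on cells, cells without an Mki67 or Top2a UMI before thinning, and days or IL-15 left out. The split by dose was chosen after seeing the data. Python 3.11.15 with numpy 2.4.6, scipy 1.17.1 and matplotlib 3.10.9 was used. Promoter sequences are from RefSeq. Some genes, and counts over lists that hold them, are not reported here.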

Additional observations from a re-analysis of the deposited data

Results flagged for a closer look

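Elovl5, an elongase of polyunsaturated fatty acids, had dose differences of unlike sign with IL-2v and IL-15. From 5 to 50 IU/mL its log2 difference was above 0 on all 3 days with IL-15, at a median of 0.61 (0.15 to 0.94). With IL-2v it was below 0 on all 3 days, at a median of -0.0807 (range -1.15 to -0.02), of which 2 days lie close to 0. It was called in neither comparison, was picked among the 34 genes for this pattern, and the difference between the cytokines was not tested.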

How the results depend on the processing

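Libraries were paired by day, dose or cytokine in every comparison of more than 1 pair, but the labels give no replicate numbers, so no fit with a replicate block was made. Of 302 alternative counts of called genes, 267 stayed within 1.5 times the main count and 35 did not. Many main counts were 0, and a count of 0 that stays at 0 says little about robustness. Of the alternative role medians, 328 were classed as unchanged and 236 as moved. Of the role medians of at least 1 in size, 0 changed sign, which is a weaker criterion. The counts over all 34 genes for activation and for day 5 without cytokine were among the 267. Their fatty acid genes, however, went from 4 to 1 and from 6 to 1 in cells without an Mki67 or Top2a UMI. For IL-2v minus IL-2 the count of 1 became 2 with at most 5% mitochondrial UMIs, 0 with a pseudocount of 10, 10, 0 and 2 without day 3, 5 and 10, and 22 and 0 at 5 and 50 IU/mL alone. For IL-15 minus IL-2 the 1 gene called lower became 0 with single-cell means, without cells of over 2 times the median UMIs, in cells without an Mki67 or Top2a UMI, with a pseudocount of 10 and at 5 IU/mL alone. It became 2 at 50 IU/mL alone and 6, 2 and 0 without day 3, 5 and 10. For IL-2v minus IL-15 the count of 7 became 11 with single-cell means and in cells without such a UMI, 26 and 1 without day 3 and day 10, and 18 at 5 IU/mL alone. Between IL-2 doses 10 became 6 with at most 5% mitochondrial UMIs, and its 7 sterol genes ran from 3 to 12 over the alternatives. Between IL-2v doses 0 became 2 in cells without such a UMI. Between IL-15 doses 1 became 5 and 9 without day 3 and day 10. From day 3 to day 10, 17 became 5 with TMM scaling, none a fatty acid gene, 8 in cells without such a UMI and 6 without IL-15. Against no cytokine, the 1 of 5 IU/mL IL-2 became 2 with totals that leave out ribosomal protein and mitochondrial genes. It became 0 with a pseudocount of 10 or in cells without an Mki67 or Top2a UMI. There the 20 of 5 IU/mL IL-2v became 13 with a pseudocount of 10, and the 0 of 5 IU/mL IL-15 became 1 with the reduced totals, 2 with at most 5% mitochondrial UMIs and 1 with no minimum level. A pseudocount of 10 also took the 14 sterol genes of 50 IU/mL IL-15 to 9 and the 9 fatty acid genes of 50 IU/mL IL-2v to 5. From day 3 to day 10 it took the 11 sterol genes called lower to 7. Where fewer pairs were used, fewer signs had to match, and otherwise the cause was not tested. Over 15 comparisons TMM scaling moved the median of all genes by -0.29 to 0.26, by over 0.1 in 7. Role medians that changed sign with a scaling were near 0, namely the sterol enzymes in IL-15 minus IL-2 (0.04 to -0.01) and, from 5 to 50 IU/mL IL-2v, these enzymes (0.09 to -0.02) and the regulators (0.08 to -0.03). Depth limits Me1, Scd1 and Fads2 in libraries with few UMIs of them, where folds have wide intervals.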
